A study of Mus musculus with 2 samples.

Results

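The genes described here are 34 markers and regulators of blood and lymphatic endothelium, the cells that line blood vessels and lymph vessels, in the skin of newborn mice lacking the phospholipase gene Pla2g4e and of wild-type newborns. The members were fixed by name, and a probe belonged to a member if it was outside the controls and carried that gene name in the scanner files. All 34 genes had such a probe, 43 probes in all, out of 24052 genes named on the array. The knockout group was 1 array of Pla2g4e-/- skin and the wild-type group 1 array of Pla2g4e+/+ skin. Both came from strain C57BL/6N at postnatal day 0, and each array held a pool of total RNA in equal amounts from 5 animals. The members were read as 14 pan-endothelial genes, 6 angiogenic receptors and ligands, 9 genes of veins, arteries and activated vessels, and 5 lymphatic genes.

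Endothelial cells are joined by cadherins, claudins and adhesion molecules of the immunoglobulin family. They are held in shape by transcription factors of the ETS and SOX families. Vessels grow under vascular endothelial growth factors and angiopoietins, which act on receptor tyrosine kinases of the VEGF receptor and Tie families. Lymphatic endothelium arises from veins once Prox1 is switched on, and then carries Lyve1, podoplanin and the VEGF-C receptor Flt4. In skin the blood vessels lie in the dermis and around hair follicles, while the epidermis has none.

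With 1 array per group there was no spread between pools, so no test was run and every difference below has no replicate check. A signal is given on a scale on which the 75th percentile of each array's probes is 1000, and signals of different genes are not set against each other, since probes differ in brightness. A difference is log2 of the knockout pool over the wild-type pool on that scale. The error given with it, 0.20 to 0.30 log2 for the members, comes from the scanner software's model of a spot and leaves out the animals. Of all spots outside the controls, 81.6% were well above background in the knockout pool and 78.8% in the wild-type pool. Pla2g4e read 152 in the knockout pool and 297 in the wild-type pool, a difference of -0.96. A second and dim probe read 5.61 in the knockout pool and 4.73 in the wild-type pool, 0.24 log2, and cleared the background on the knockout array only. Which stretch of Pla2g4e is missing in the knockout is not stated in the labels, and a probe outside that stretch checks nothing. The pools also differed in sex: the Y-linked gene Ddx3y fell short of that mark in the knockout pool but read 1296 in the wild-type pool, and Xist, which coats an inactive X chromosome, read 1379 in the knockout pool and 356 in the wild-type pool. Sex and genotype therefore cannot be told apart in any difference below, and neither can genotype and position on the slide.

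Genes of the labelled tissue and of the members' cell type were both detected. The epidermal keratin genes Krt5, Krt14, Krt1 and Krt10 and the cornified envelope gene Lor were well above background on both arrays. So were all 34 endothelial members, including the pan-endothelial genes Pecam1 and Cdh5, the VEGF receptor Kdr, and Prox1, Lyve1 and Flt4 of the lymphatic group. Most genes passed this mark on both arrays, 19238 of the 24052 named. The probes of Prox1 and Flt4 were dim, and Lyve1 is also made by some macrophages. No member was lost to the filter on dim probes. Of the 43 probes, 1 fell short, a second probe for Flt1, which passed on the knockout array but not on the wild-type array.

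Endothelial genes were mostly higher in the knockout pool, by less than 2-fold. Of the 34 members, 30 lay above 0 and 4 below, while 51.9% of the 19238 measured genes lay above 0. At least 1.5-fold higher were 12 members, or 35.3%, against 6.77% of all measured genes. At least 1.5-fold lower was 1 member, Sox18, against 4.48% of all measured genes. The median difference of the members was 0.50, against 0.01 over all measured genes. Without any scaling of the arrays, 7 members were at least 1.5-fold higher, against 5.18% of all measured genes, and 27 lay above 0, where the median of all measured genes was -0.08. In bulk skin RNA, more cells of a type and more RNA per cell cannot be told apart. Of the members, 20 differed by more than 2 scanner errors in either direction. The share of all measured genes past that mark was not computed, so the count of 20 is not read as a result about the members. Plvap, just short of that mark on the higher side at 0.41 log2, stood at percentile 87.9 of the differences of all measured genes. That rank covers the higher side only. Several members lay close to the 1.5-fold line of 0.585 log2: Angpt2 at 0.59 and Sox18 at -0.59 just past it, and Tek at 0.56 just short of it.

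**Figure D1:**
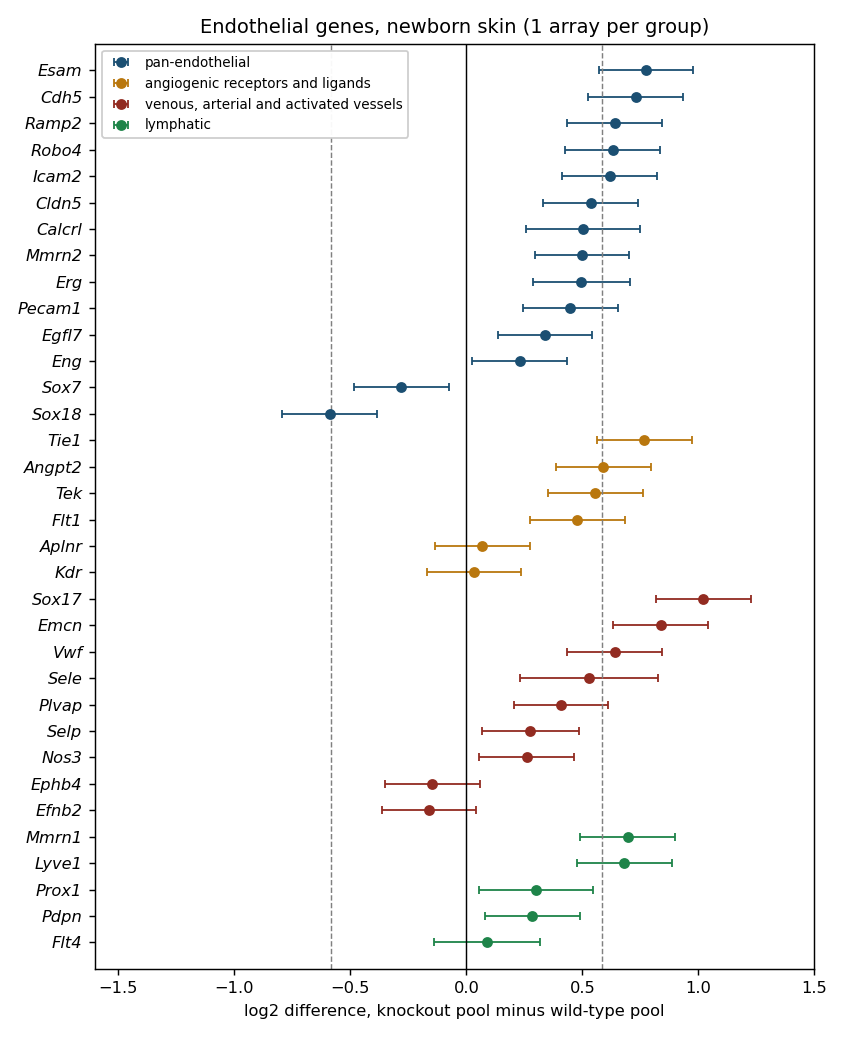
Log2 difference, knockout pool minus wild-type pool, of the 34 endothelial genes, coloured by role and ordered within each role. Points are the brightest measured probe of a gene on 1 array per group, bars are the scanner software's error of the difference (not a spread between animals), and dashed lines mark 1.5-fold; 30 points lie to the right of 0.

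**Figure D2:**
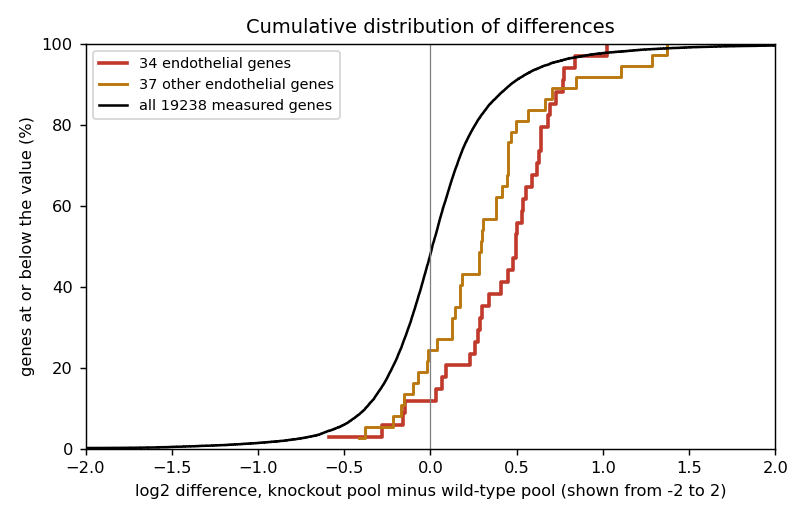
Cumulative share of genes (percent, vertical axis) against the log2 difference, knockout pool minus wild-type pool, for the 34 endothelial genes, 37 other endothelial genes and all 19238 measured genes. The median of the 34 genes is 0.50, that of the 37 is 0.29 and that of all genes is 0.01; values beyond 2 in either direction are not drawn.

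Among the pan-endothelial genes, those of cell junctions were higher in the knockout pool. Cdh5, the cadherin of endothelial adherens junctions, read 1605 in the knockout pool and 968 in the wild-type pool, a 1.66-fold difference. Esam, an adhesion molecule of endothelial tight junctions and of platelets, read 1455 in the knockout pool and 850 in the wild-type pool, 1.71-fold. Cldn5, the main claudin of endothelial tight junctions, read 2861 in the knockout pool and 1974 in the wild-type pool, 1.45-fold. All of these differences exceeded 2 scanner errors, and none of the genes had a second probe. Icam2, an integrin ligand on endothelium and platelets, read 3271 in the knockout pool and 2132 in the wild-type pool, 1.53-fold. Pecam1, the adhesion molecule CD31, read 323 in the knockout pool and 237 in the wild-type pool, 1.36-fold. The junction and adhesion genes thus all lay on the side of the knockout pool, between 0.45 and 0.77 log2.

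Pan-endothelial receptors and matrix proteins were on the same side. Ramp2 and Calcrl together form the receptor for adrenomedullin. Ramp2 read 8768 in the knockout pool and 5629 in the wild-type pool, 1.56-fold. Calcrl, from a dim probe, read 21.3 in the knockout pool and 15.05 in the wild-type pool, 1.42-fold. Both partners of the receptor were therefore higher, and their ligand Adm read 642 in the knockout pool and 414 in the wild-type pool, 0.63 log2. Robo4, the endothelial member of the roundabout receptors, read 3792 in the knockout pool and 2451 in the wild-type pool, 1.55-fold. Eng, a co-receptor for bone morphogenetic proteins and transforming growth factor beta, read 491 in the knockout pool and 419 in the wild-type pool. Its difference of 0.23 was close to its scanner error of 0.20. Mmrn2, a glycoprotein of the vessel matrix, stood at 0.50, and Egfl7, a secreted endothelial protein, at 0.34.

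The transcription factors did not move one way. Erg, an ETS factor of endothelial identity, read 66.9 in the knockout pool and 47.5 in the wild-type pool, 0.50 log2, and its second and dimmer probe gave 0.27. Sox7, Sox17 and Sox18 form the F group of SOX factors, which act in arterial and lymphatic fate and partly replace each other in mouse vessels. Sox17, a factor of arterial endothelium, read 682 in the knockout pool and 336 in the wild-type pool. This was the largest difference among the 34 members, 2.03-fold or 1.02 log2, and the only one of at least 2-fold, against 2.25% of all measured genes; 0 members were at least 2-fold lower, against 1.44% of all measured genes. The call hung on the settings, since Sox17 stood at 0.97 with median scaling, 0.93 unscaled and 0.96 after normexp background correction, all short of 2-fold. A second Sox17 probe read higher in the knockout pool too, by 0.65 log2. Sox18, a factor upstream of Prox1 in lymphatic development that is also made in the dermal papilla of hair follicles, read 1473 in the knockout pool and 2214 in the wild-type pool, 0.665 times the wild-type level. Sox7 read 1026 in the knockout pool and 1247 in the wild-type pool, a difference of -0.28. Under every scaling tried, Sox17 stayed above 0 and Sox7 and Sox18 below it, and Sox18 ranged from -0.68 to -0.58.

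The probes behind the opposite signs of the SOX genes are shown because members of 1 family can share sequence. Each is 60 bases long and is given 5′ to 3′ in lower case, with its mm9 position as the scanner files give it; the sources used here hold no exon model on that assembly, so exon and UTR are not assigned.
Sox17, chr1:4481503-4481562, minus strand: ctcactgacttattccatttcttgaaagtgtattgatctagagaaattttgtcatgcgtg
Sox17, chr1:4481038-4481097, minus strand: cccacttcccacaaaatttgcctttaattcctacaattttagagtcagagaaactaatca
Sox18, chr2:181404789-181404848, minus strand: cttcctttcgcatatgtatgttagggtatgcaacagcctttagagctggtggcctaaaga
Sox7, chr14:64569419-64569478, plus strand: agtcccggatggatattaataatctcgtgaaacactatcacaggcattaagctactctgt
Between probes of different SOX genes the longest shared run, on either strand, was 7 bases, for Sox18 and the Sox17 probe at 4481038.

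Of the 6 angiogenic receptors and ligands, the Tie receptors and Angpt2 were higher and the main VEGF receptor was near 0. Tie1, the co-receptor of the angiopoietin system, read 364 in the knockout pool and 214 in the wild-type pool, 1.70-fold. Tek, the angiopoietin receptor Tie2, read 202 in the knockout pool and 137 in the wild-type pool, 1.47-fold. Angpt2, a ligand that endothelium releases when vessels are remodelled, read 1000.06 in the knockout pool and 664 in the wild-type pool, 1.51-fold. The Tie receptors and Angpt2 lay between 0.56 and 0.77 log2. Angpt1, the ligand made by cells around the vessel, stood at 0.23.

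Among the VEGF receptors, Flt1, which binds VEGF-A as a decoy, was 1.39-fold higher, at 1302 in the knockout pool and 934 in the wild-type pool. Kdr, the receptor that carries most of the VEGF-A signal, read 2082 in the knockout pool and 2036 in the wild-type pool, a difference of 0.03 with a scanner error of 0.20. The sign of that value, from the brighter of 2 Kdr probes, was not fixed: it was -0.01 with the arrays scaled to their medians and -0.06 unscaled. The other Kdr probe, printed 10 times, gave 0.13. Aplnr, the receptor of apelin on sprouting and venous endothelium, read 236 in the knockout pool and 225 in the wild-type pool, 0.07 log2, or -0.02 without scaling. Its ligand Apln read 80.5 in the knockout pool and 340 in the wild-type pool, -2.08 log2. Apln is X-linked and the pools differed in sex, and the part of sex in this value was not tested. Ligands of the VEGF receptors lay on either side of 0: Vegfa at -0.34, Vegfc at 0.50 and the X-linked Vegfd at 0.89.

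Kdr, Nos3 and Selp each had a probe printed 10 times on each array, which shows the error of a spot. For Kdr and Nos3 this was not the brighter probe that gave the gene's value. Over its 10 spots, Kdr ran from 1622 over a median of 1709 to 1856 in the knockout pool, and from 1499 over 1549 to 1655 in the wild-type pool. The ranges overlapped, but at every matched position within the arrays the knockout spot was the higher, by 0.075 to 0.17 log2. The mean difference over the spots was 0.13 ± 0.025 log2 (SD, n = 10 spots). Nos3, the endothelial nitric oxide synthase, ran from 218 over 237 to 244 in the knockout pool and from 186 over 208 to 226 in the wild-type pool. Those ranges overlapped as well, and again the knockout spot was the higher at every position, by 0.075 to 0.24. The mean difference was 0.19 ± 0.052 (SD, n = 10 spots). Selp, the selectin stored in platelets and endothelial granules, ran from 63.1 over 67.5 to 71.7 in the knockout pool and from 51.7 over 55.6 to 60.1 in the wild-type pool. All 10 spots of Selp were higher in the knockout pool than any in the wild-type pool, by 0.28 ± 0.092 on average (SD, n = 10 spots). Position by position, Selp differed by 0.079 to 0.43. The spots of a probe all saw the same pool, so they are no replicates of a genotype.

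**Figure D3:**
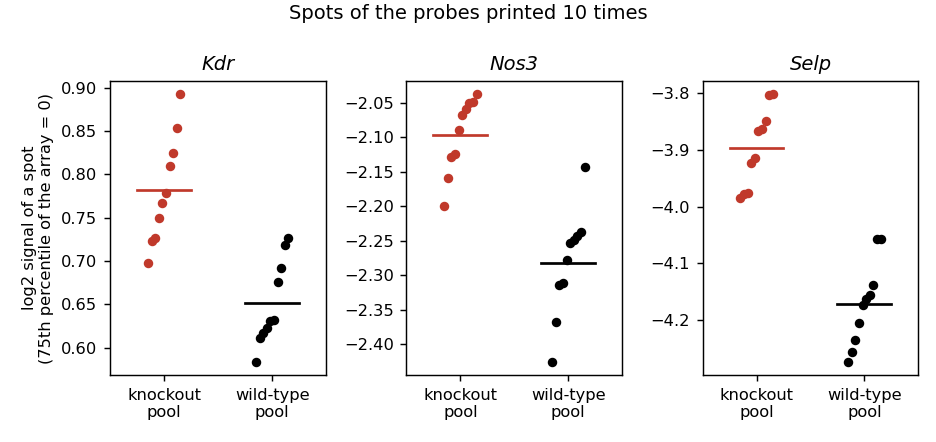
Log2 signal of each of the 10 spots (points, spread sideways for legibility) of the repeated probes for Kdr, Nos3 and Selp, with the knockout pool in red and the wild-type pool in black and the mean as a line; the 75th percentile of each array is 0. Each panel has its own vertical range, and the ranges of the pools overlap for Kdr and Nos3 but not for Selp. Matched by position, every spot of each probe was higher in the knockout pool.

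The genes of veins, arteries and activated vessels were uneven. Emcn, the sialomucin of veins and capillaries, read 259 in the knockout pool and 145 in the wild-type pool, 1.79-fold, the largest difference after Sox17. Vwf, the clotting factor of endothelial granules and platelets, read 2629 in the knockout pool and 1688 in the wild-type pool, 1.56-fold. Plvap, the diaphragm protein of fenestrated capillaries and veins, read 1612 in the knockout pool and 1215 in the wild-type pool, 1.33-fold, with a second probe at 0.32 log2. Ephb4, the receptor that marks veins, read 1587 in the knockout pool and 1757 in the wild-type pool. Efnb2, its ligand and the mark of arteries, read 2783 in the knockout pool and 3112 in the wild-type pool. The differences of this receptor and ligand, -0.15 and -0.16, were within 1 scanner error, and the second probe of each lay below 0 too, at -0.08 and -0.13. Nos3 stood at 0.26 on its brighter probe. Sele, the selectin that cytokines induce on endothelium, stood at 0.53, but read 14.8 in the knockout pool and 10.2 in the wild-type pool and had the largest scanner error of the members, 0.30.

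All 5 lymphatic genes lay above 0, with a median of 0.30. Lyve1, the hyaluronan receptor of lymphatic capillaries and of some macrophages, read 2906 in the knockout pool and 1812 in the wild-type pool, 0.68 log2. Mmrn1, a matrix protein of lymphatic endothelium and platelets, read 1412 in the knockout pool and 873 in the wild-type pool, 1.62-fold. Prox1, the master factor of lymphatic fate, read 23.1 in the knockout pool and 18.8 in the wild-type pool, 0.30 log2 with a scanner error of 0.24. Flt4, the VEGF-C receptor, read 23.4 in the knockout pool and 22.0 in the wild-type pool. Its difference was 0.09, or -0.0016 without scaling, with a scanner error of 0.23. Pdpn, podoplanin, which basal keratinocytes and fibroblasts also make, read 4076 in the knockout pool and 3346 in the wild-type pool, 1.22-fold, and 0.18 log2 on its second probe. Prox1 and Flt4, the lymphatic regulators of the list, thus had dim probes and differences near their error, and the larger values belonged to Lyve1 and Mmrn1, which other cells make too.

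Side by side, the medians of the roles were 0.50 for pan-endothelial genes, 0.52 for angiogenic receptors and ligands, 0.41 for veins, arteries and activated vessels and 0.30 for lymphatic genes. Their ranges overlapped, from -0.59 to 0.77, from 0.03 to 0.77, from -0.16 to 1.02 and from 0.09 to 0.69. With 5 to 14 genes a role and no test, no role was shown to differ from another. Lymphatic genes had a median of 0.68 among the 3 brighter genes alone. Veins, arteries and activated vessels had one of 0.28 with Emcn and Plvap counted as pan-endothelial. Of the 9 members with several probes, 8 had at least 2 that were measured on both arrays, and the probes of each of these 8 had 1 sign. They differed from each other by a median of 0.090 log2 and by up to 0.38 for Sox17.

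**Figure D4:**
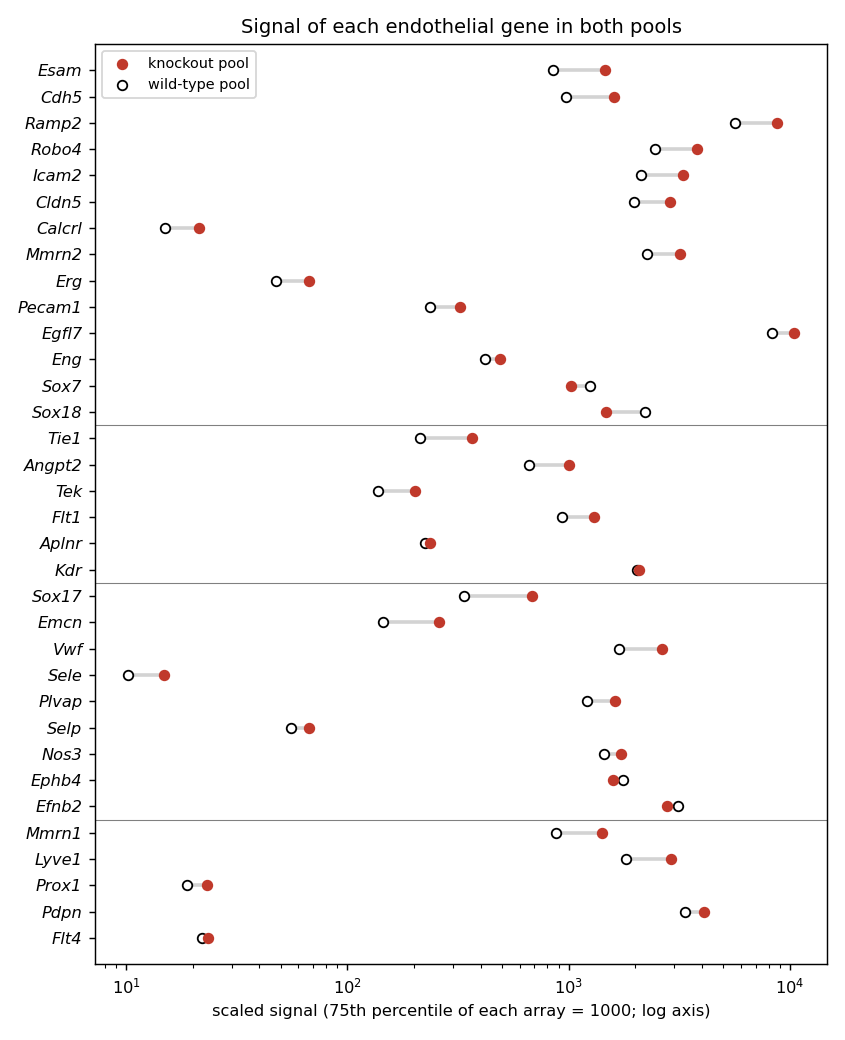
Scaled signal of each endothelial gene in the knockout pool (filled) and the wild-type pool (open), on a log axis on which 1000 is the 75th percentile of each array; grey lines separate the 4 roles, and each point is 1 array. The filled point lies to the right for 30 genes and to the left for Sox7, Sox18, Ephb4 and Efnb2; positions of different genes are not comparable, since probes differ in brightness.

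Promoters were examined for the 19 members that the RefSeq promoter table on GRCm38.p6 holds, over the 250 bases before the first listed start of each gene. Motifs were sought on both strands: AGGAAG or CGGAAG for ETS factors, AACAAT or ACAATG for SOX factors, and AACAGGAA for the joint site of forkhead and ETS factors known from endothelial enhancers, which overlaps AGGAAG where a G follows. The ETS letters stood in 9 of 19 member promoters (47.4%) and in 39.0% of all 27025 promoters. The SOX letters stood in 4 of 19 (21.1%) and in 16.7% of all. The joint forkhead and ETS letters stood in 3 of 19 (15.8%) and in 2.16% of all. Among promoters of measured genes the shares were 43.2% for the ETS, 11.4% for the SOX and 1.99% for the joint letters. These counts describe letters in a window and show no binding.

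The 3 promoters with the joint letters are printed, those of Emcn, Calcrl and Egfl7, which stood at 0.84, 0.50 and 0.34 log2. Tie1, at 0.77, is added as a member with ETS letters alone. Neither ETS nor joint letters stood in the promoters of Mmrn1 at 0.69, Tek at 0.56 and Cldn5 at 0.54. The same held for Ephb4 and Efnb2, which lay below 0. Whether these letters go with the differences was not tested. Capitals mark the ETS and the joint letters, and each sequence runs 5′ to 3′ toward the start of its gene.
Emcn, chr3:137340828-137341077, plus strand: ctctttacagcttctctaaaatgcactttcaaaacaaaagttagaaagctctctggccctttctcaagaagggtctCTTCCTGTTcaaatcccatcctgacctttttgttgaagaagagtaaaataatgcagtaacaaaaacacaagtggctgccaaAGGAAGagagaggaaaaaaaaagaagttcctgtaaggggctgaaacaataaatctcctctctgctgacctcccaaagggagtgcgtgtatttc
Calcrl, chr2:84425267-84425516, minus strand: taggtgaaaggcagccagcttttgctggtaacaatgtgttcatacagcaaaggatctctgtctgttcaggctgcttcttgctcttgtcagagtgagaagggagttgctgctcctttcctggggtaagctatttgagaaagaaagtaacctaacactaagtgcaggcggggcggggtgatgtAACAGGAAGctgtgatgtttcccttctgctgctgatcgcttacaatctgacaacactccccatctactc
Egfl7, chr2:26580833-26581082, plus strand: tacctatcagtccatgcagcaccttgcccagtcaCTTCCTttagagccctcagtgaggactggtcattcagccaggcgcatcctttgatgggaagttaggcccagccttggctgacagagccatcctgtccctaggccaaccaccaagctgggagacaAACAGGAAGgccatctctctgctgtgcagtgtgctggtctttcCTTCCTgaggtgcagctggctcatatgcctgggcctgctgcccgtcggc
Tie1, chr4:118489850-118490099, minus strand: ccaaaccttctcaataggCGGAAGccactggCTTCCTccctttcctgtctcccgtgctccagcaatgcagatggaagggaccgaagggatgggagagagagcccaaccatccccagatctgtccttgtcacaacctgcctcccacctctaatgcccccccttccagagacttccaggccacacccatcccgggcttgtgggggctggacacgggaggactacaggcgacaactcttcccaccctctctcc
In Emcn the joint site reads on the opposite strand, and in Calcrl and Egfl7 on the strand of the gene.

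Other endothelial genes, a list of 37 that shares no gene with the members, lay on the same side with a smaller median. Of the 37, 28 lay above 0, 6 were at least 1.5-fold higher and 0 at least 1.5-fold lower, and the median was 0.29. For this list and those below, the shares of all measured genes were 51.9% above 0, 6.77% at least 1.5-fold higher and 4.48% at least 1.5-fold lower. Highest were Clec14a, an endothelial lectin that binds Mmrn2, at 1.37, and Nostrin, which handles the traffic of nitric oxide synthase, at 1.29. Next were S1pr1, the receptor of sphingosine phosphate, at 2.15-fold, Cyyr1 at 0.84, the adhesion receptor Adgrl4 at 0.70 and the shear-stress factor Klf2 at 0.67. On the signal scale S1pr1 read 904 in the knockout pool and 421 in the wild-type pool. Lowest were the repressor Bcl6b at -0.41 and the tetraspanin-like Tm4sf1 at -0.38.

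Ligands and signalling genes of vessel growth were not shifted as a list. Of 35 measured genes of 37, 3 were at least 1.5-fold higher, or 8.57%, against 6.77% of all measured genes. Another 3 were at least 1.5-fold lower, against 4.48% of all measured genes. The median was 0.03, or -0.06 without scaling. The higher ones were Vegfd, the matrix protein Thbs1 at 0.66 and Adm. The lower ones were Apln and the Notch targets Heyl at -0.72 and Hey2 at -0.61. The Notch ligand Dll4 of arterial and sprouting endothelium stood at 0.09, and the receptor Notch4 at 0.36. Of 17 further lymphatic genes, 3 were at least 1.5-fold higher and 0 at least 1.5-fold lower, with a median of 0.18. These were the scavenger receptors Ackr2 at 1.20, Stab2 at 1.16 and Stab1 at 0.59, of which Stab1 is made by macrophages too; the transcription factors Tbx1 at -0.53 and Foxc1 at -0.38, which other skin cells also make, were lowest.

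Several members are also made by blood cells, whose markers were read beside them. Platelet and megakaryocyte markers had a median of 0.27 over 11 of 12 genes, with 8 above 0, 3 at least 1.5-fold higher and 0 at least 1.5-fold lower. Their summed signal was 35789 in the knockout pool and 24077 in the wild-type pool, most of it from Pf4, a platelet chemokine, at 32443 in the knockout pool and 22042 in the wild-type pool. Ppbp, a chemokine of platelet granules, read 1045 in the knockout pool and 66.4 in the wild-type pool, 3.98 log2 from a single probe. Gp9 stood at 0.86 and Treml1 at 0.62, the platelet receptors Clec1b and Gp1bb at -0.50 and -0.27, and 2 dimmer Clec1b probes, well above background on the knockout array only, pointed the other way, while Gp5 was not well above background in either pool. Their part in the values of Vwf, Selp, Icam2, Esam and Mmrn1 was not tested. Erythroid markers had a median of 0.57 over 10 of 13 genes, 5 of them at least 1.5-fold higher, namely Hbb-y at 1.99, Rhd at 1.04, Rhag at 0.89, Ahsp at 0.80 and Hbb-b1 at 0.64, with Slc4a1 at 0.17 and Car1 at -0.21 lowest. Their sum was 95079 in the knockout pool and 70218 in the wild-type pool, most of it from the globin genes Hba-a1, at 50608 in the knockout pool and 35939 in the wild-type pool, and Hbb-bt, at 40132 in the knockout pool and 31265 in the wild-type pool. Epb42 was well above background only in the wild-type pool, on 1 of its 2 probes. The erythroid median was 0.43 among the 4 brighter genes, and the values of Hbb-y, Rhd and Rhag came from dim probes. The part of blood left in the skin in the endothelial values was not tested.

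Macrophages, which can make Lyve1 and Stab1, had a median of 0.25 over 13 markers, 11 of them above 0. Their sum was 29998 in the knockout pool and 26983 in the wild-type pool. The scavenger receptors Cd163 at 1.02, the 1 marker past 1.5-fold, and Mrc1 at 0.50 were highest, and Timd4 at -0.57 and Csf1r at -0.13 lowest. Their part in the value of Lyve1 was not tested. Leukocyte markers had a median of 0.17 over 10 genes, with 0 past 1.5-fold in either direction, from Cd3e at -0.07 to Laptm5 at 0.32 and Itgb2 at 0.57.

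Cells of the vessel wall and other tissues of skin were also read. Pericyte and smooth muscle genes had a median of 0.20 over 15 genes, 12 above 0 and 1 at least 1.5-fold higher. That was Higd1b, a pericyte gene, at 0.68, followed by Des at 0.49, with Smtn at -0.28 and the pericyte proteoglycan Cspg4 at -0.14 lowest. All 10 skeletal muscle genes lay above 0, at a median of 0.47, with Myh3 at 0.99, Myog at 0.71 and Actn2 at 0.60 past 1.5-fold. Lowest were Tnnc2 at 0.17 and, on its brightest probe, Myh8 at 0.18. The other Myh8 probes stood at 0.64 and 1.05, both past 1.5-fold. The median of 8 Schwann cell genes was 0.36, from Sox10 at -0.25 to Foxd3 at 0.47 and Cdh19 at 0.66, the 1 past 1.5-fold. Keratinocyte genes had a median of 0.11 over 10 genes and dermal fibroblast genes one of 0.10 over 11, with 0 past 1.5-fold in either list. The keratinocyte genes ran from Krt5 at -0.05 and Krt14 at 0.0013 to Itga6 at 0.26 and, on its brightest probe, Trp63 at 0.30, and the fibroblast genes from Twist2 at -0.32 and Lum at -0.23 to Fbln1 at 0.42 and Pdgfra at 0.49. The other Trp63 probes differed in sign, at 0.20, -0.55 and -0.66. Adipocyte genes had a median of -0.16 over 8 of 9, with Plin1 at -1.13, Adipoq at -0.64 and Retn at -0.62 the 3 that were at least 1.5-fold lower, and Ucp1 at 0.58 and Lpl at -0.0088 highest. The endothelial median of 0.50 therefore stood beside medians of like size for muscle and erythroid genes, with no test between lists, and beside medians near 0.1 for the 2 most abundant cell types of skin. The part of unequal tissue content in these values was not tested.

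**Figure D5:**
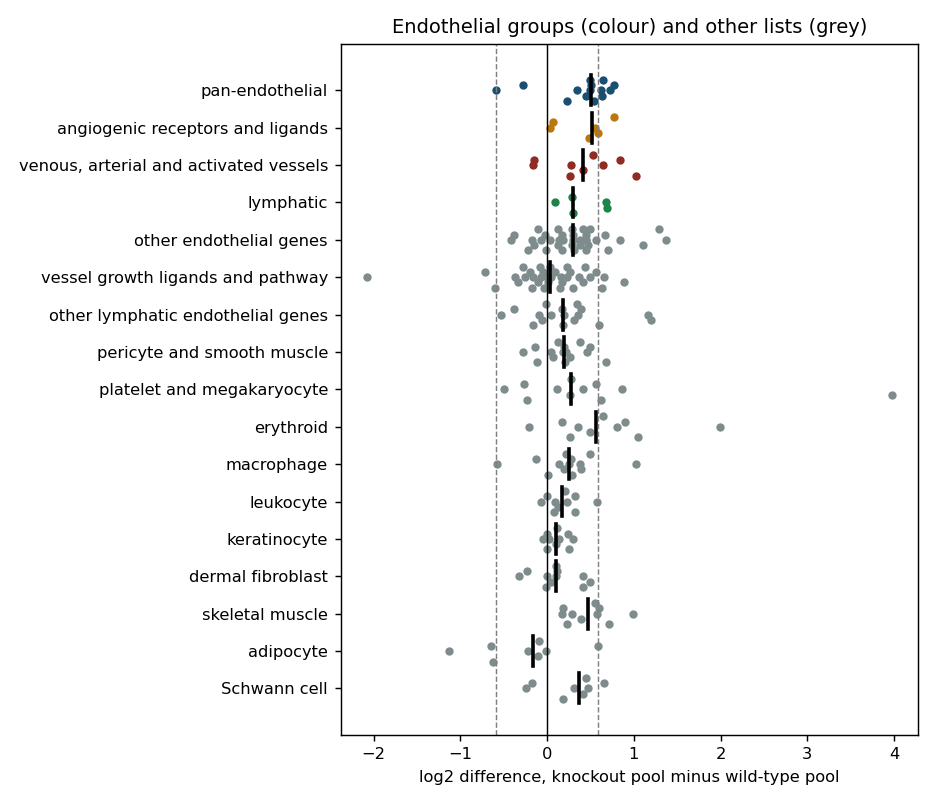
Log2 difference, knockout pool minus wild-type pool, of each measured gene (points, spread vertically for legibility) in the 4 endothelial roles (colour) and the 13 other lists (grey), with the median of each list as a black bar and 1.5-fold as dashed lines. The medians run from -0.16 for adipocyte genes to 0.57 for erythroid genes, and the outlying point of the platelet list is Ppbp at 3.98.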

How the data were processed

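RNA from 2 pools of newborn mouse skin was amplified from 200 ng, labelled with Cy3 and hybridised to Agilent 1-colour arrays, per the labels' protocols. The scanner software was Feature Extraction 11.5.1.1, per the submitters' processing notes, and the deposited intensity of each spot was already background-subtracted and spatially detrended, per the file headers. The deposited value table is a ratio: the processed intensity divided by 2273 for the knockout array and 2406 for the wild-type array, as found by setting it against the scanner files; its median was 0.0969 for the knockout and 0.0946 for the wild-type array.

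Here, 234 outlier spots were left out and 0 spots were saturated. Log2 signals were averaged over the spots of a probe and reduced by the array's 75th percentile, which was 0.939 times as high on the knockout array. Of 39422 probes, 28326 were named by accession, 2204 by symbol and 174 by synonym through a RefSeq table of GRCm38.p6, 1513 kept the file's name and 7205 had none. A gene was its brightest probe well above background on both arrays. Calls are folds of 1.5 and 2, with no test, and the number of arrays limits the precision. The members and lists were chosen with earlier results of these data known. Every member was to be named, and of the other lists the 2 highest and 2 lowest genes plus those that spell out a small count; some of these are not reported here, and further genes named were chosen after their values were seen. Normexp used limma 3.58.1 in R 4.3.3; other steps used Python 3.11.15 with numpy 2.4.6 and pandas 2.3.3.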

Additional observations from a re-analysis of the deposited data

How the results depend on the processing

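The alternatives were other scalings (the 75th percentile of probes above background, the array median, quantile normalization, none), normexp background correction, the deposited value table, other rules for a gene's probe, other filters on dim probes, and 2 regroupings of members. The median of all genes moved by less than 0.1 log2 under each. The members' median ran from 0.41 without scaling to 0.50. The count at least 1.5-fold higher was 7 without scaling (5.18% of all genes), 9 with median scaling (5.89%) and 12 in the values reported (6.77%); Icam2, Robo4, Ramp2, Angpt2 and Vwf were those that dropped out unscaled. With quantile normalization 0 members were at least 1.5-fold lower, as Sox18 stood at -0.58. The lymphatic median was 0.68 among brighter genes, where 3 of the 5 remained, and 0.49 without Pdpn. The median of veins, arteries and activated vessels was 0.28 with Emcn and Plvap counted as pan-endothelial, and 0.26 with normexp. Among single members, 329 values under alternatives all moved by less than the gene's scanner error. For many of them this could not come out otherwise. Scaling to another constant shifted every gene alike, by less than 0.1 log2, where the lowest scanner error of the members was 0.20. Other filters on dim probes and the rule of the smallest error left the values of the remaining members unchanged. Kdr, on its brighter probe, changed sign with median scaling, and Kdr, Aplnr and Flt4 did so unscaled. Sox17 stood at 0.83 with its probes averaged. Signals near background limit Sele, Calcrl, Prox1 and Flt4. No paired analysis was possible because each group has 1 array.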
